A study of Mus musculus with 10 samples.

Results

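The 42 genes described here encode chaperones, translocation subunits, degradation factors and stress sensors of the endoplasmic reticulum (ER), and their mRNA was measured in mouse liver. They were listed by gene symbol as members of the pathway, with no threshold on a measured value but with earlier results of these data known, and all 42 were found among the 41388 Ensembl genes listed for every library. All 42 also passed the filter on low counts, which kept the 13444 genes that reached more than 1 CPM (counts scaled to the library total) in some library. Each of the 42 exceeded 1 CPM in at least 1 fasted WT liver, so none was kept only through its level after refeeding.

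The ER is where secreted and membrane proteins enter the secretory pathway, fold and acquire glycans and disulfide bonds, and hepatocytes, which secrete most plasma proteins, carry a large amount of it. When unfolded proteins accumulate, the membrane sensors IRE1, PERK and ATF6 start the unfolded protein response. IRE1 splices the mRNA of the transcription factor XBP1, ATF6 is cut to release a transcription factor, and PERK slows translation, and the IRE1 and ATF6 arms raise transcription of chaperones and degradation factors. Gene counts measure total mRNA of each gene and carry no measure of Xbp1 splicing or of ATF6 cleavage.

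Liver RNA of 10 C57B/6J mice aged 12 wk was sequenced, with 1 library per mouse. WT mice were littermates with 2 LoxP-flanked, intact Nampt alleles, and NAMPT LKO mice carried Albumin-cre in addition, which removes Nampt from hepatocytes and leaves it in the other cells of the liver. The groups were WT fasting (3 mice, 24 h without food on aspen bedding), NAMPT LKO fasting (5 mice, same fast) and WT refed (2 mice, 22 h without food and then 2 h with food). The feeding times are those of the sample labels, whereas the published description gives a shorter fast and random-fed controls. No refed NAMPT LKO liver was analysed here, so the effect of feeding can be read in WT livers alone, and WT fasting vs. WT refed and NAMPT LKO fasting vs. WT refed share the 2 refed livers. The refed mice had fasted first, and no group of mice without a fast was analysed. A fall during fasting therefore cannot be told apart from a rise after refeeding. Where the level of a gene is said below to fall, its level in fasted livers is given relative to refed livers, not a course in time. In these bulk libraries fewer cells of a type and less RNA per cell cannot be told apart.

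Total counts ranged from 30603080 to 43434139 per library. Nampt (ENSMUSG00000020572), which encodes the rate-limiting enzyme of NAD salvage, lay between 11.6 and 15.1 CPM in the NAMPT LKO livers and between 62.1 and 139 CPM in the WT fasting livers (log2 fold change -2.81, SE 0.22, adjusted p = 0.00102 in edgeR's quasi-likelihood fit). All 6 hepatocyte markers were abundant and none was called in any of the 3 comparisons, with a summed level of 72380 to 77400 CPM after refeeding and 73230 to 101600 CPM in WT fasting livers. Pancreatic acinar markers, which would accompany a piece of this ER-rich tissue, summed to at most 1.14 CPM in any liver, and 5 of 9, including Cpa1 and Prss2, had a count of 0 in every library. The 8 plasma and B cell markers summed to 5.93 to 9.46 CPM after refeeding and 9.90 to 13.5 CPM in WT fasting livers, and the 7 Kupffer cell markers to 168 to 210 CPM and 216 to 387 CPM. The 7 stellate and endothelial markers summed to 241 to 243 CPM after refeeding, 257 to 298 CPM in WT fasting and 288 to 341 CPM in NAMPT LKO livers. None of these non-hepatocyte markers was called in WT fasting vs. WT refed, and their part in the results below was not tested. NAMPT LKO liver 5 stood apart from the other libraries. Mitochondrial transcripts took 21.1% of its counts against 7.42% to 12.9% elsewhere. Its deviation from the mean over all libraries fell with the GC content of genes (Spearman rho -0.56 across genes).

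Fasted WT livers held less mRNA of most of the 42 ER genes than refed WT livers. In WT fasting vs. WT refed 30 of 42, or 71.4%, were called lower and 0 higher by edgeR's quasi-likelihood test, where 4.36% of all 13444 genes were called lower and 2.68% higher. A gene is called at a Benjamini-Hochberg adjusted p of 0.05 or less. The median log2 fold change was -0.91 over the 42 genes and 0.04 over all genes tested, 41 of the 42 values were negative, and 20 genes were called with a fall of at least 1 on the log2 scale, which 1.59% of all genes showed. On TMM-scaled library sizes the 42 genes summed to 16460 and 15915 CPM in the refed livers and to 6215, 6616 and 7455 CPM in the WT fasting livers. In the NAMPT LKO livers the sum ran from 5852 to 8015 CPM, with the highest value in liver 5. For 37 of the 42 every WT fasting liver lay below both refed livers, a pattern held by 25.1% of all genes. The count of calls rests on both refed livers. It was 15 of 42 when either refed liver 1 or refed liver 2 was left out, where the remaining refed liver was assumed to vary like the other groups, and the median then stayed at -0.90 and -0.94. Xbp1, Atf6b, Eif2ak3, Dnajc3, Calr, Uggt1, Txndc5, Ppib, Derl2, Derl3, Sec61a1, Sec61g, Ssr2 and Ssr3 lost their call without either one, Dnajb9 without refed liver 1 and Pdia3 without refed liver 2.

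**Figure D1:**
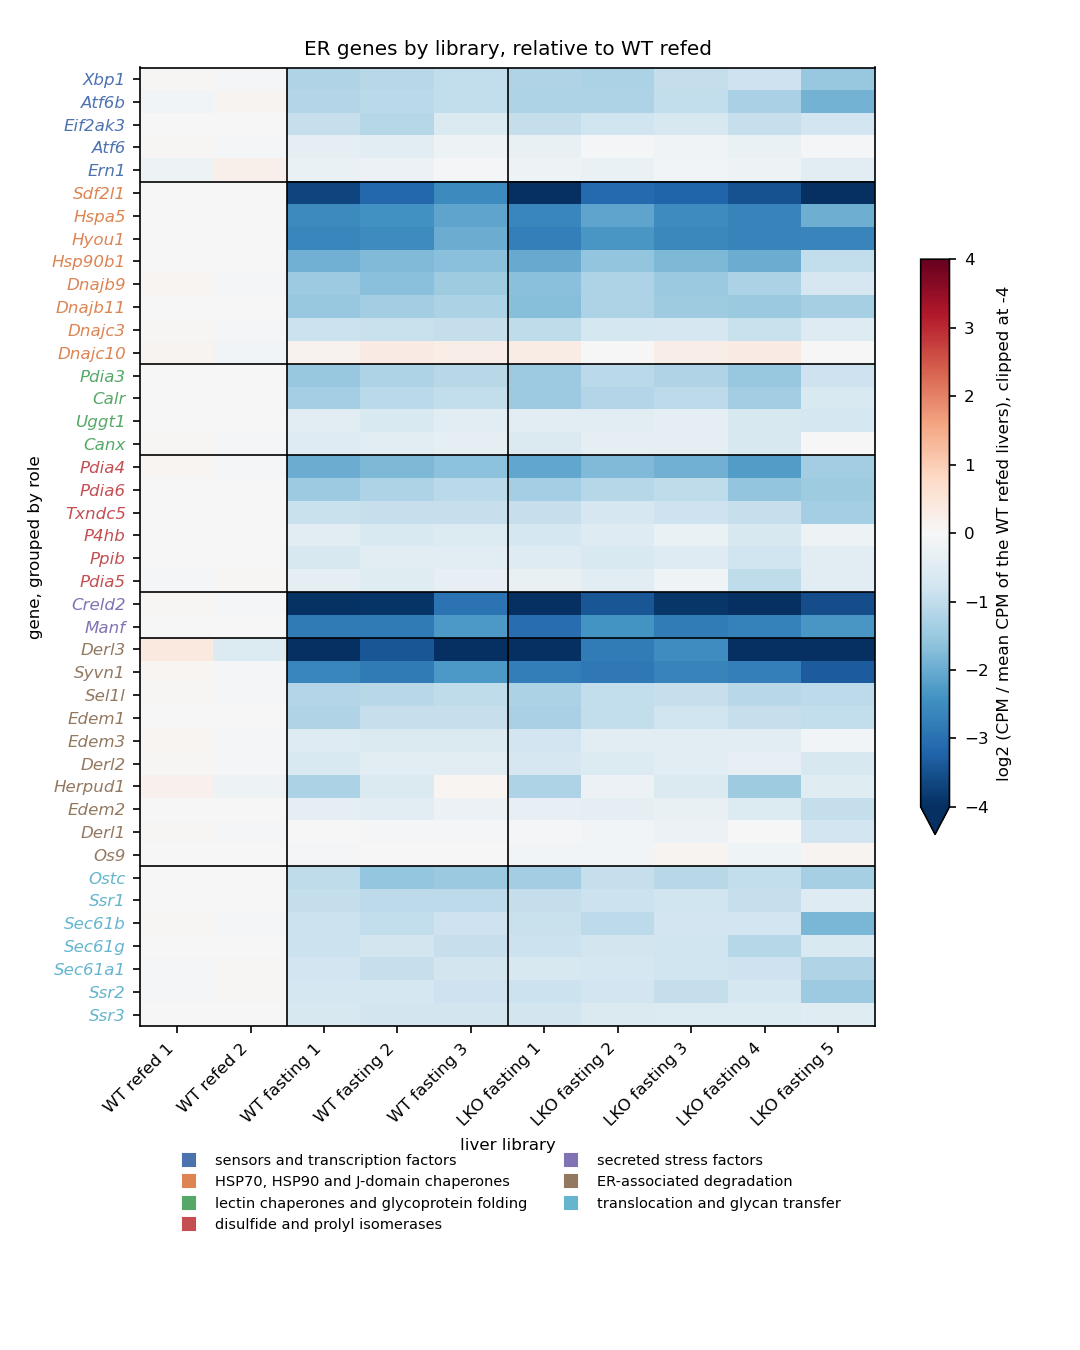
Level of each of the 42 ER genes (rows, grouped by role and coloured by it) in each of the 10 liver libraries (columns), as log2 of TMM-normalized CPM over the mean of the 2 WT refed livers; colours are clipped at -4. The fasted columns of both genotypes are blue for most rows, darkest for Sdf2l1, Creld2 and Derl3, and Dnajc10 is the row with a positive difference, with a log2 fold change of 0.25 in WT fasting vs. WT refed.

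Of the HSP70, HSP90 and J-domain chaperones, listed together with Sdf2l1, a partner of J-domain proteins, 7 of 8 were called lower. Their log2 fold changes ranged from -3.05, that of Sdf2l1, to 0.25, with a median of -1.65. Hspa5 (ENSMUSG00000026864, chr2:34771970-34776531, plus strand of GRCm38) encodes BiP, the HSP70 of the ER that binds nascent chains and holds the stress sensors inactive. It stood at 3008 and 2934 CPM in the refed livers, at 511, 556 and 689 CPM in the WT fasting livers and at 488, 693, 517, 462 and 763 CPM in the NAMPT LKO livers. Both refed livers thus lay far above all 8 fasted livers, and the fasted genotypes overlapped. The mean was 5.07-fold higher in WT refed livers (log2 fold change -2.34, SE 0.23, adjusted p = 0.00034 in edgeR's quasi-likelihood fit). Per kb of exonic length, Hspa5 was the most abundant of the 42 genes after refeeding at 846 CPM per kb, and in WT fasting livers it had rank 4 at 167 CPM per kb, behind P4hb at 375, Calr at 256 and Herpud1 at 224 CPM per kb.

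The region upstream of Hspa5 is shown because it carries the element by which this gene family is best known. RefSeq places the 250 bases before the start site at chr2:34771840-34772089 of GRCm38.p6, plus strand, printed here 5′ to 3′ with the ER stress response element (ERSE, CCAAT and CCACG with any 9 bases between them) in capitals. The element binds NF-Y at its CCAAT end and ATF6 or XBP1 at its CCACG end.
Hspa5 promoter: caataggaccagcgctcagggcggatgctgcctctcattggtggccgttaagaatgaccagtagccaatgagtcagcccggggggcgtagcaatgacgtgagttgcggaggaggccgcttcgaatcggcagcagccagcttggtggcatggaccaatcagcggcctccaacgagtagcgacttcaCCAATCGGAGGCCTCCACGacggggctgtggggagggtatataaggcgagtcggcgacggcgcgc
The window held 1 exact match, whose last base lies 47 bases before the RefSeq start site. The Ensembl span given above begins inside this stretch, at 34771970, so the match lies within the Ensembl gene.

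Sdf2l1 (ENSMUSG00000022769, chr16:17130138-17132383, minus strand), which keeps misfolded proteins soluble together with ER J-domain proteins, showed 131 and 130 CPM in the refed livers. Its WT fasting values were 10.2, 14.7 and 22.2 CPM, and the NAMPT LKO livers held 7.67, 15.1, 14.1, 11.7 and 7.96 CPM. The refed mean was 8.30-fold higher than the WT fasting mean with no overlap (log2 fold change -3.05, SE 0.34, adjusted p = 0.000858 in edgeR's quasi-likelihood fit). Hyou1 (ENSMUSG00000032115, chr9:44379490-44392369, plus strand), the large HSP70 relative that exchanges nucleotide on BiP, was at 657 and 659 CPM after refeeding and at 109, 115 and 168 CPM in WT fasting livers. In NAMPT LKO livers Hyou1 measured 99.3, 132, 111, 102 and 106 CPM. Every fasted liver again lay below both refed livers, by a log2 fold change of -2.33 in WT (SE 0.19, adjusted p = 0.000235). Hsp90b1, which encodes the ER HSP90 GRP94, fell by 1.78 on the log2 scale (SE 0.26, adjusted p = 0.00367). The J-domain cofactors of BiP followed with log2 fold changes of -1.51 for Dnajb9, -1.40 for Dnajb11 and -0.91 for Dnajc3, all called. Dnajc10, a J-domain protein that reduces disulfide bonds, was the exception at 18.5 and 16 CPM in refed and 19.1 to 21.7 CPM in WT fasting livers (log2 fold change 0.25, SE 0.15, adjusted p = 0.342).

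**Figure D2:**
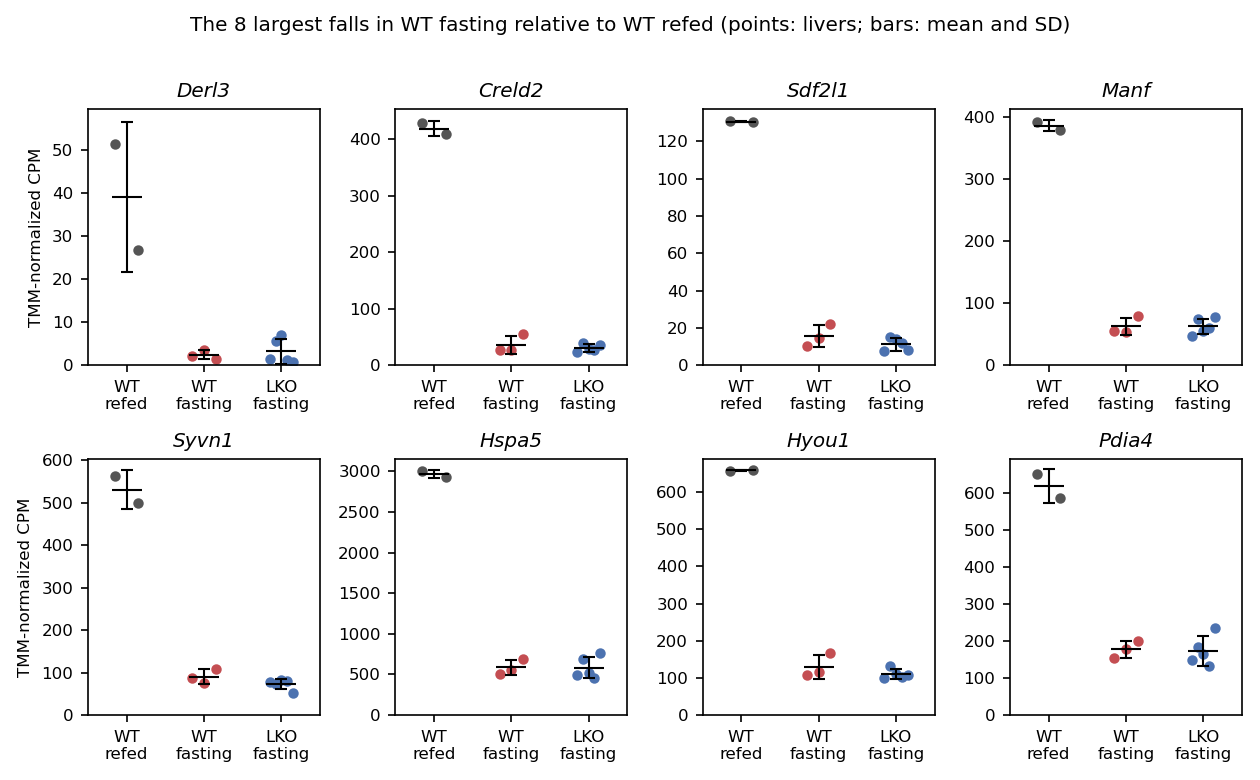
TMM-normalized CPM (linear axis from 0) of the 8 genes with the largest falls in WT fasting relative to WT refed, 1 point per liver with the mean and SD of 2 WT refed, 3 WT fasting and 5 NAMPT LKO fasting livers. In each panel both refed livers sit above all 8 fasted livers, as for Hspa5 at 3008 and 2934 against at most 763 CPM, and the fasted genotypes overlap.

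The 2 secreted stress factors were both called lower, with the lowest median log2 fold change of any role, -3.08. Creld2 (ENSMUSG00000023272, chr15:88819646-88826681, plus strand), a disulfide isomerase-like protein released during ER stress, was at 428 and 410 CPM after refeeding and at 26.8, 27.6 and 54.5 CPM in WT fasting livers. Its NAMPT LKO values were 23.9, 39.3, 28.2, 26.4 and 36.1 CPM. The refed mean was 11.5-fold higher than the WT fasting mean (log2 fold change -3.53, SE 0.31, adjusted p = 0.000253 in edgeR's quasi-likelihood fit). Manf (ENSMUSG00000032575, chr9:106838312-106891979, minus strand), a secreted factor that binds BiP, stood at 393 and 380 CPM in refed livers and at 54.4, 54.2 and 79.1 CPM in WT fasting livers. The NAMPT LKO livers held 47.0, 73.9, 55.1, 59.6 and 77.1 CPM of Manf. For both genes all fasted livers were below both refed livers, and the log2 fold change of Manf was -2.63 (SE 0.23, adjusted p = 0.000253).

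Genes of ER-associated degradation, which returns misfolded proteins to the cytosol for the proteasome, were split, with 5 of 10 called lower and a median log2 fold change of -0.52. Derl3 (ENSMUSG00000009092, chr10:75893398-75895941, plus strand), a derlin of the retrotranslocation channel, had the largest fold change of the 42 genes at low counts. It stood at 51.6 and 26.9 CPM in the refed livers, 2.17, 3.64 and 1.54 CPM in the WT fasting livers, and 1.47, 5.62, 7.06, 1.31 and 0.787 CPM in the NAMPT LKO livers. The refed livers differed from each other by more than the whole range of the fasted livers, and still lay above them (log2 fold change -4.01, SE 0.80, adjusted p = 0.014). Leaving out refed liver 1, refed liver 2 or WT fasting liver 1 ended that call (adjusted p = 0.11, 0.0589 and 0.0543 in edgeR's quasi-likelihood fit). Its relatives Derl2 and Derl1 had log2 fold changes of -0.50, which was called, and -0.04, which was not.

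Syvn1 (ENSMUSG00000024807, chr19:6046576-6053712, plus strand) encodes HRD1, the membrane ubiquitin ligase at the core of the pathway. It was at 563 and 499 CPM after refeeding, at 87.4, 74.9 and 109 CPM in WT fasting livers and at 78.3, 73.4, 83.5, 79.9 and 52.8 CPM in NAMPT LKO livers. All 8 fasted livers lay below both refed livers (WT fasting vs. WT refed log2 fold change -2.56, SE 0.20, adjusted p = 0.000235). Sel1l, the partner that stabilizes HRD1, fell by 1.09 and Edem1, which marks misfolded glycoproteins by trimming mannose, by 1.01 on the log2 scale, both called. The remaining members Edem2 (-0.34), Edem3 (-0.55), the lectin Os9 (-0.03) and Herpud1 (-0.48) were not called. Herpud1, a membrane scaffold of the HRD1 complex, was spread over 307, 489 and 774 CPM in WT fasting and over 274 to 618 CPM in NAMPT LKO livers, against 827 and 636 CPM after refeeding. The WT fasting livers overlapped both other groups, and the NAMPT LKO livers lay below both refed livers.

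Among the lectin chaperones and their glycoprotein folding cycle 3 of 4 genes were called lower. Calr, the soluble lectin calreticulin, fell by 1.12 on the log2 scale (SE 0.22, adjusted p = 0.014), from a mean of 1602 to 737 CPM. Without WT fasting liver 1 the adjusted p was 0.0536. Canx, its membrane-bound relative, went from a mean of 372 to 273 CPM, a log2 fold change of -0.45 that was not called (SE 0.17, adjusted p = 0.15). Pdia3, the isomerase that works with both lectins, fell by 1.27, and Uggt1, which returns unfolded glycoproteins to the cycle, by 0.51 on the log2 scale.

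The disulfide and prolyl isomerases showed 4 of 6 genes called lower. Pdia4 (ENSMUSG00000025823, chr6:47796142-47813512, minus strand), a multi-domain disulfide isomerase, was at 651 and 587 CPM in refed, at 155, 178 and 201 CPM in WT fasting and at 148, 184, 165, 132 and 234 CPM in NAMPT LKO livers. No fasted liver reached either refed liver (WT fasting vs. WT refed log2 fold change -1.80, SE 0.22, adjusted p = 0.00128 in edgeR's quasi-likelihood fit). Pdia6, Txndc5 and the prolyl isomerase Ppib had called log2 fold changes of -1.24, -0.91 and -0.50. P4hb, the archetypal protein disulfide isomerase and a subunit of prolyl 4-hydroxylase, had a mean of 1558 CPM after refeeding and 1072 CPM in WT fasting livers and was not called (log2 fold change -0.54, SE 0.16, adjusted p = 0.0687). Pdia5 was not called at -0.40.

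Translocation and glycan transfer genes moved within a narrow range, with 6 of 7 called lower and log2 fold changes from -1.33 to -0.70. The channel subunits Sec61a1 and Sec61g had called log2 fold changes of -0.80 and -0.83, and Sec61b measured -0.88 without a call (SE 0.25, adjusted p = 0.0596). Sec61b ranged over 12.4 to 26.3 CPM in the NAMPT LKO livers, with the lowest value in liver 5. The translocon-associated subunits Ssr1, Ssr2 and Ssr3 were called at -1.01, -0.75 and -0.70, and Ostc, a subunit of the oligosaccharyltransferase at the channel, at -1.33 (SE 0.18, adjusted p = 0.0026). In all 7 genes every WT fasting liver was below both refed livers, a pattern held by 25.1% of all genes.

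Of the sensors and their transcription factors 3 of 5 were called lower, with a median log2 fold change of -0.86. Xbp1 stood at 266 and 253 CPM after refeeding, at 113, 121 and 130 CPM in WT fasting livers and at 112, 107, 135, 148 and 90.1 CPM in NAMPT LKO livers. All fasted livers lay below both refed livers (log2 fold change -1.09 in WT, SE 0.18, adjusted p = 0.00641). Atf6b, the paralog of ATF6, was at 38.3 and 44 CPM in refed, 18.5, 19.7 and 20.8 CPM in WT fasting and 17.7, 17.5, 20.9, 16.9 and 11.1 CPM in NAMPT LKO livers. Its fasted and refed livers did not overlap (log2 fold change -1.07 in WT, SE 0.21, adjusted p = 0.0127 in edgeR's quasi-likelihood fit). Eif2ak3, which encodes PERK, was among the less abundant genes at 20.02 and 20.87 CPM in refed, 10.8, 9.29 and 13.6 CPM in WT fasting and 10.6, 11.9, 13.1, 10.8 and 12.1 CPM in NAMPT LKO livers. Here too no values overlapped between fed states (log2 fold change -0.86 in WT, SE 0.17, adjusted p = 0.0126).

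Atf6 and Ern1, which encodes IRE1 alpha, were not called. Atf6 measured 96.0 and 87.9 CPM in refed, 72.2, 67.6 and 79.3 CPM in WT fasting and 74.4, 87.7, 83.7, 76.8 and 88.5 CPM in NAMPT LKO livers. The WT fasting livers were below the refed livers and the NAMPT LKO livers overlapped both (log2 fold change -0.33 in WT, SE 0.12, adjusted p = 0.13). Ern1 was at 55.4 and 73.4 CPM in refed, 53.6, 54.4 and 62.5 CPM in WT fasting and 55.4, 54.0, 59.9, 56.5 and 47.6 CPM in NAMPT LKO livers. Its groups overlapped (log2 fold change -0.18, SE 0.15, adjusted p = 0.509).

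**Figure D3:**
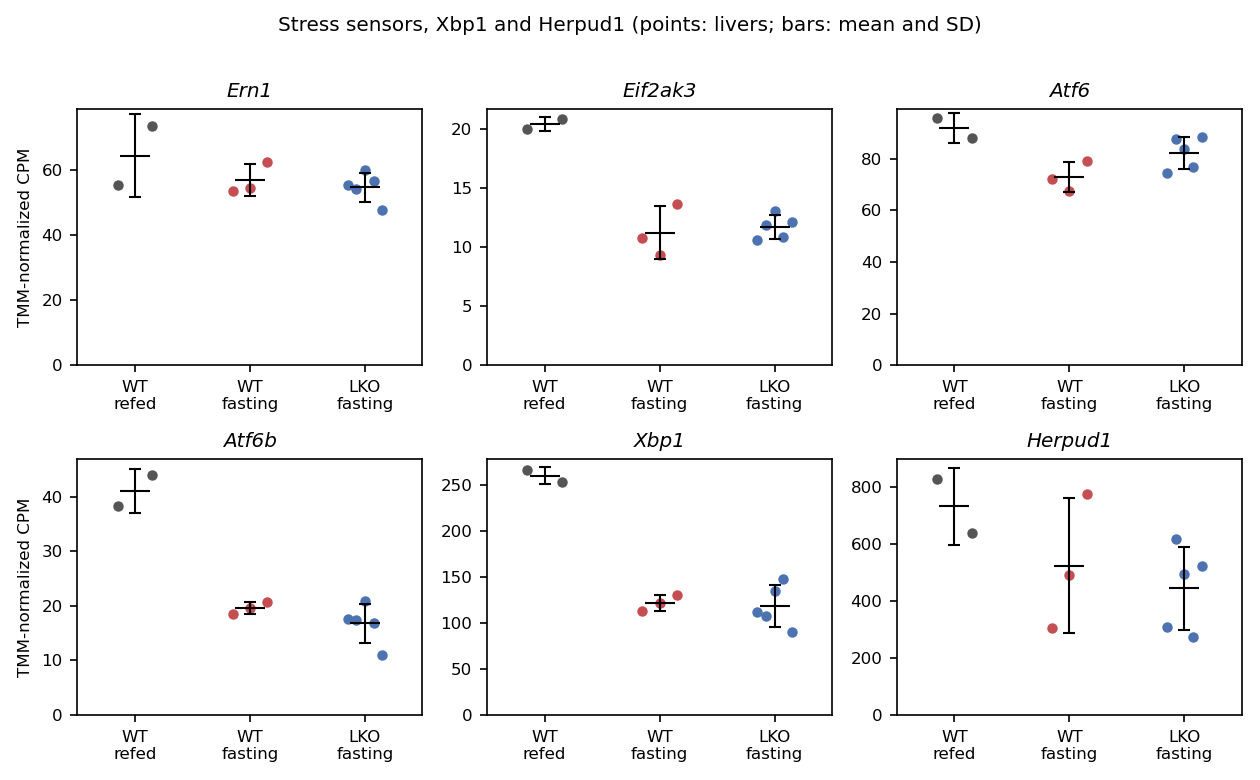
TMM-normalized CPM (linear axis from 0) of the sensors Ern1, Eif2ak3, Atf6 and Atf6b, the transcription factor Xbp1 and the degradation scaffold Herpud1, 1 point per liver with the mean and SD of 2 WT refed, 3 WT fasting and 5 NAMPT LKO fasting livers. Eif2ak3, Atf6b and Xbp1 separate refed from fasted livers, Ern1 does not, and Herpud1 runs from 307 to 774 CPM within the WT fasting group.

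Exact matches to ERSE were found upstream of 9 of the 35 genes that have an entry in the RefSeq promoter table (250 bases before to 50 after each start site, GRCm38.p6, both strands searched), or 25.7%, against 37 of all 27025 genes in the table, or 0.137%. The 9 were Hspa5, Hsp90b1, which has 2 matches, Dnajc3, Calr, Canx, Pdia6, Creld2, Derl3 and Syvn1. They are counted among the 37, and the element is best known from this gene family, so the shares are a description and no test. The shorter ERSE-II (ATTGG, any base, CCACG) was matched in Dnajb11 and Herpud1, or 5.71%, against 0.0444% of all genes, and the XBP1 element UPRE (letters TGACGTGG) in Txndc5 alone, or 2.86%, against 0.714%. The table held no entry for Atf6, Hyou1, Manf, Derl1, Sec61a1, Ostc and Ssr2. A match says that the letters are there, and no binding was measured. The windows below show matches in both orientations, 39 bases each on the strand of the gene with ERSE in capitals (CCAAT first in the gene's own direction, ATTGG last in the opposite one), for 3 of the deepest falls, for the gene with a pair of matches and for Canx, the ERSE gene that was not called.
Creld2, chr15:88819510-88819548, plus strand: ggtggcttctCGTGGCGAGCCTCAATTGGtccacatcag
Derl3, chr10:75893232-75893270, plus strand: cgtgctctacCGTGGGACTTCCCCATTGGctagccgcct
Syvn1, chr19:6046522-6046560, plus strand: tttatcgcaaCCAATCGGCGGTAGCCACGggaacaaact
Hsp90b1, chr10:86705523-86705561, minus strand: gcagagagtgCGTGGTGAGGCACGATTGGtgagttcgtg
Hsp90b1, chr10:86705628-86705666, minus strand: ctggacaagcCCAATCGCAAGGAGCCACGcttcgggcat
Canx, chr11:50325790-50325828, minus strand: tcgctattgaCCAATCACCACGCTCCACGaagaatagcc
Of the 9 genes with ERSE, 8 were called lower in WT fasting vs. WT refed, with log2 fold changes from -4.01 to -0.45 and a median of -1.78. With ERSE or ERSE-II there were 11 genes, of which 9 were called lower, with a median of -1.40. Of the 24 with a promoter entry and neither ERSE form, 16 were called lower, with a median of -0.85. The lowest value among these was that of Sdf2l1 at -3.05. The members without an entry, which ran from Manf at -2.63 to Derl1 at -0.04, are in none of these sets. Of all 9843 tested genes with a promoter entry, 471 were called lower, with a median of 0.02. Outside the 42 genes, 8 other tested genes had ERSE, and 2 of them were called lower, with a median of 0.00214. These were Alg12 (log2 fold change -1.70, SE 0.31, adjusted p = 0.0099), a mannosyltransferase of glycan assembly, and Acnat2 (-0.75, SE 0.20, adjusted p = 0.042), a peroxisomal acyltransferase. Alg12 is transcribed away from Creld2, and the single match at chr15:88819520-88819538 lies in the promoter windows of both genes. Counting either form, 14 other tested genes had a match, and 3 of them were called lower, with a median of -0.09. Besides Alg12 and Acnat2 this was Krtcap2, which has ERSE-II (log2 fold change -0.57, SE 0.12).

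Between the fasted genotypes no difference was detected in the 42 ER genes. In NAMPT LKO fasting vs. WT fasting 0 of 42 were called, beside 1 of all 13444 genes, Nampt, or 0.00744%. Over all genes DESeq2 called 24, edgeR's exact test 19 and limma's voomWithQualityWeights 1 in this comparison, with 0 of the 42 among them. At an unadjusted p under 0.05, 0 of the 42 passed in edgeR's quasi-likelihood test, where 6.03% of all genes did, 0 passed with DESeq2 and with edgeR's exact test, and 1 passed with limma's voomWithQualityWeights. The median log2 fold change was -0.00277, 24 values were negative and 18 positive, and the adjusted p-values ran from 0.837 to 0.999. The 95% interval lay within 1 log2 unit of 0 for 40 of the 42, and for Hspa5 it ran from -0.40 to 0.40. Derl3 (-1.02 to 1.88) and Sdf2l1 (-1.07 to 0.12) had the intervals that reached further, so differences of that size could not be seen in these genes.

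**Figure D4:**
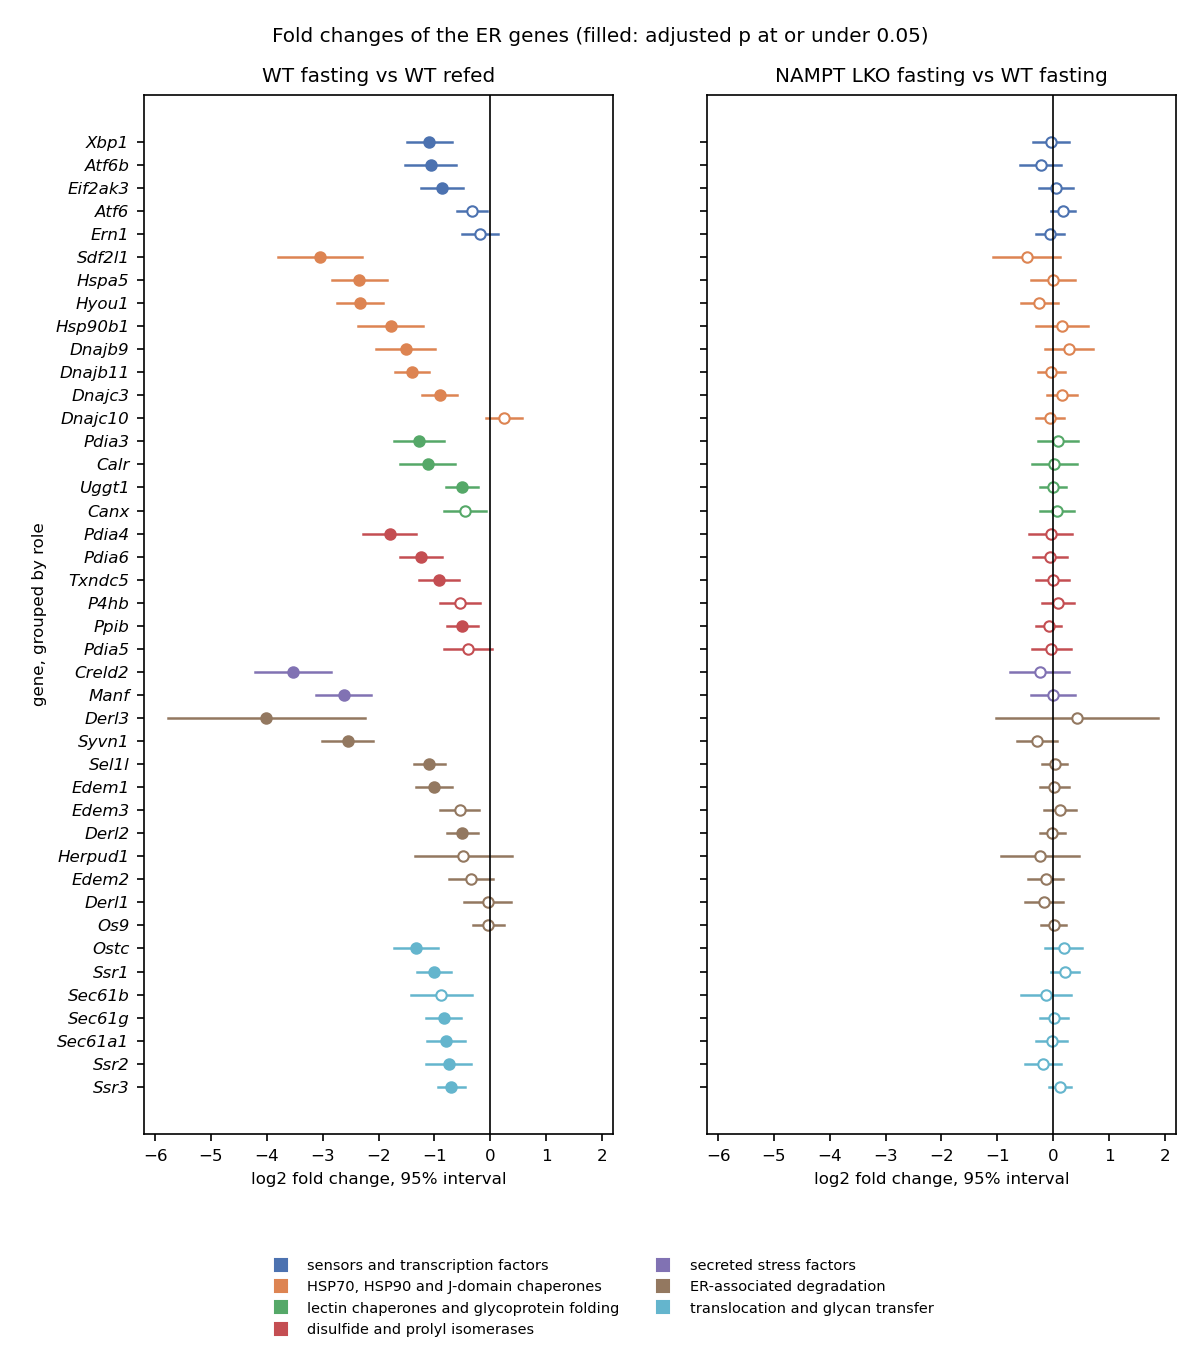
Log2 fold change with 95% interval of each of the 42 ER genes, coloured by role, in WT fasting vs. WT refed (left) and NAMPT LKO fasting vs. WT fasting (right); filled points are called. On the left 30 points are filled and 41 lie below 0, and on the right 0 are filled and values run from -0.47 to 0.43.

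The 3 genes with the lowest p in this comparison were Ssr1, Syvn1 and Sdf2l1. Ssr1 was at 72.9, 68.3 and 68.5 CPM in WT fasting and at 72.9, 78.2, 80.9, 73.7 and 99.6 CPM in NAMPT LKO livers. The groups did not overlap but touched within rounding, the highest value was that of liver 5, and the difference was not called (log2 fold change 0.21, 95% interval -0.03 to 0.46, adjusted p = 0.837 in edgeR's quasi-likelihood fit). Such a separation upwards was seen in 1 of the 42 genes and in 1.87% of all genes. For Syvn1 and Sdf2l1, whose values are given above, the genotypes overlapped at log2 fold changes of -0.30 and -0.47, both with that same adjusted p.

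In NAMPT LKO fasting vs. WT refed, which uses the same 2 refed livers as the WT comparison, 31 of 42 genes, or 73.8%, were called lower and 0 higher, beside 6.58% called lower and 4.65% called higher of all genes, with a median log2 fold change of -0.92 against 0.03 over all genes. The value of Hspa5 was -2.35 and that of Creld2 -3.77. Sec61b was called here (log2 fold change -1.01, adjusted p = 0.0163 in edgeR's quasi-likelihood fit), a call lost without either refed liver, and in WT fasting vs. WT refed it gained a call under 7 of 19 alternatives. For 36 of the 42 genes the 5 NAMPT LKO livers lay below both refed livers, as for 17.8% of all genes. The calls numbered 20 without refed liver 1 and 17 without refed liver 2. Beside these values, 2 of the 7 stellate and endothelial markers, Col1a1 and Kdr, were called higher in NAMPT LKO fasting livers than in refed livers.

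NAMPT LKO liver 5 spread the values of its group. Relative to the mean of the other 4 NAMPT LKO livers, its 42 values ran from -1.48 to 0.86 on the log2 scale and fell with GC content across the genes (Spearman rho -0.58, n = 42 genes of the same library, given as a description). It had the highest Calr of its group, at 1048 CPM against 590 to 775 CPM in the other 4, and the lowest Atf6b, at 11.1 against 16.9 to 20.9 CPM. Without that liver 0 of 42 genes were called in NAMPT LKO fasting vs. WT fasting and 35 in each comparison with refed livers. With the GC trend of each library removed, the numbers were 0, 32 called in WT fasting vs. WT refed and 34 in NAMPT LKO fasting vs. WT refed.

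Related secretory pathway genes were partly lower in fasted WT livers, with medians nearer to 0. For the counts below, 4.36% of all 13444 genes were called lower and 2.68% higher in WT fasting vs. WT refed. Of 29 other genes for translocation, signal peptidase and oligosaccharyltransferase, 11 were called lower and 0 higher, with a median log2 fold change of -0.43. Those with the lowest p were Tram1 (-0.74, a protein of the channel that guides nascent chains), Srp68 (-0.85, a subunit of the signal recognition particle) and Ddost (-0.97, a subunit of the oligosaccharyltransferase). Of 38 other genes for ER folding and degradation, 9 were called lower and 0 higher, with a median of -0.22, and those with the lowest p were Ero1lb (-1.11), the oxidase that recharges disulfide isomerases, Creb3l2 (-0.97), an ER-anchored transcription factor, and Tmx2 (-0.75), a membrane thioredoxin. Of 32 genes for COPII vesicles and transport to the Golgi, 12 were called lower and 0 higher, with a median of -0.39. Tmed3 (-1.87, SE 0.13), a cargo receptor, Sec23b (-1.63, SE 0.13), a subunit of the inner coat, and Arfgap3 (-1.27, SE 0.19), which acts in the return from the Golgi, led this list. None of these 99 genes was called in NAMPT LKO fasting vs. WT fasting.

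Genes listed for the ATF4 and CHOP arm went in both directions, and the activity of PERK was not measured. Of these 14 genes, 5 were called higher, 2 lower and 7 in neither direction in WT fasting vs. WT refed. Of all genes 2.68% were called higher and 4.36% lower. The median log2 fold change of the 14 was 0.28. Ddit4, an inhibitor of mTORC1, stood at 4.44 and 2.95 CPM in refed livers and at 22.9, 23.1 and 18.4 CPM in WT fasting livers (log2 fold change 2.54, SE 0.43, adjusted p = 0.00674 in edgeR's quasi-likelihood fit). Cebpb (1.48), Sesn2 (1.77), Trib3 (1.11) and Ppp1r15a (0.70), the phosphatase subunit that reverses PERK signalling, were also called higher. Ddit3, which encodes CHOP, was lower at -1.16 (SE 0.30, adjusted p = 0.0412 in edgeR's quasi-likelihood fit), as was Eif2s1 (-0.65), the substrate of PERK. Atf4 itself was not called (-0.27, adjusted p = 0.416 in the same fit), and neither were Asns, Chac1, Atf3, Atf5, Nupr1 and Ppp1r15b.

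**Figure D5:**
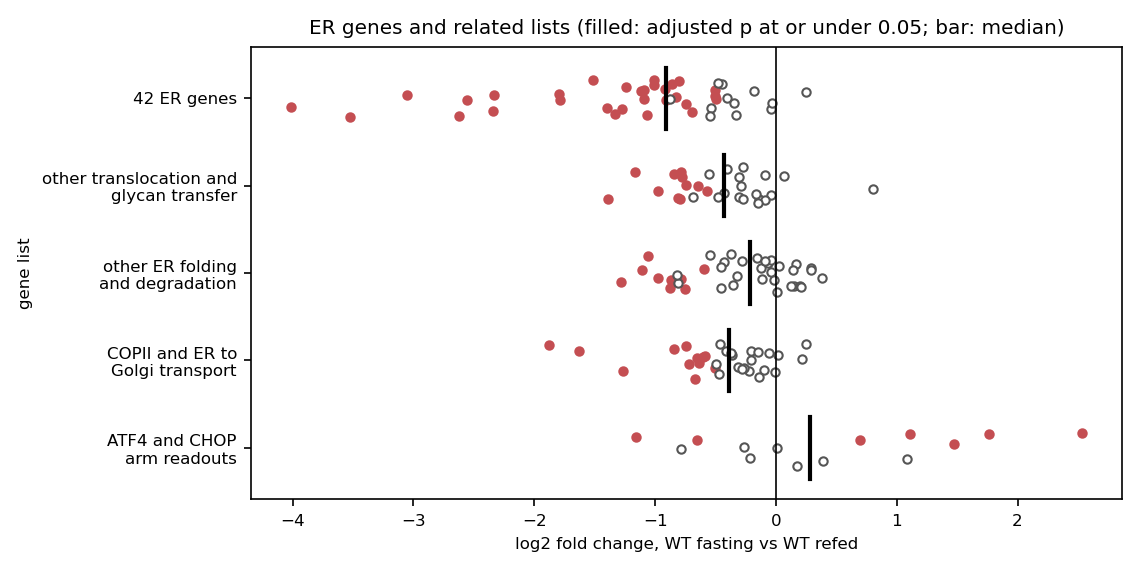
Log2 fold change in WT fasting vs. WT refed (horizontal axis) of the 42 ER genes and of the genes tested in 4 related lists (rows), 1 point per gene, with filled points called at an adjusted p at or under 0.05 and the median of each list as a bar. The medians run from -0.91 for the 42 ER genes through -0.43, -0.39 and -0.22 for the other secretory pathway lists to 0.28 for the ATF4 and CHOP arm.

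Outside the 42 genes, the 5 genes with the profile most like that of Hspa5, by Pearson's r of log2 CPM over the 10 libraries, were Gfpt1 (r = 0.99), Lrrc59 (0.99), Mlec (0.99), Ptcd2 (0.99) and Eif2b5 (0.98). These coefficients describe 10 libraries in which the fed state separates 2 from 8, and they carry no test. Gfpt1 encodes the first enzyme of the hexosamine pathway and Mlec an ER lectin. In WT fasting vs. WT refed their log2 fold changes were -1.46 and -1.49, both called, and that of Eif2b5 was -0.35, which was not (adjusted p = 0.0559 in edgeR's quasi-likelihood fit). Within the 42 genes, r with Hspa5 was highest for Pdia4, Manf, Creld2 and Dnajb11, at 0.99 each, and it was -0.69 for Dnajc10.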

How the data were processed

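The authors selected RNA with oligo-dT, aligned reads to GRCm38 with STAR and counted them per Ensembl gene with featureCounts (STAR 2.5.1a and featureCounts 1.4.6-p5 per the labels), and deposited a count, a CPM and an RPKM for each gene. The deposited CPM and RPKM were recomputed from the deposited counts and add no normalization. Strand-aware counting is not stated in the sources used here. The span of 8 members overlaps a gene on the opposite strand (Hsp90b1, Pdia3, Pdia6, Ppib, Manf, Derl2, Herpud1 and Syvn1). Overlap of exons was not examined, and the paper counts only unambiguous reads. Whether reads of these 8 members were lost or credited to the other gene is therefore not known. The labels give 24 h of fasting where the paper gives 12 h and random-fed controls, and 3 WT fasting libraries were analysed here.

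Everything else was computed here in R 4.3.3. The filter kept genes with more than 1 CPM in 1 or more libraries, rRNA genes were left out, and TMM-normalized counts of all 10 libraries were tested in one fit by edgeR 4.0.16 (glmQLFit, legacy default), with Benjamini-Hochberg adjustment over 13444 genes and calls at an adjusted p of 0.05 or less. SE and 95% intervals of log2 fold changes come from that fit. Levels are CPM on TMM-scaled library sizes. Alternatives were DESeq2 1.42.0, edgeR's exact test, voomWithQualityWeights of limma 3.58.1, other normalizations and filters, the compared groups alone, fits with a replicate block or with 1 library left out, and, chosen after seeing the data, removal of a loess trend with GC content (span 0.5). The main fit, DESeq2, edgeR's exact test, voomWithQualityWeights and the fit to the compared groups alone were also run on simulated counts. The outcome of those runs is not given here. Libraries are separate mice, replicate pairs differed by more than sampling noise, and depth sets the counting error only.

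Lists as well as members were chosen with earlier results of these data known, so no test over a list is given. Genes shown in every library were the 8 called members with the largest log2 fold changes in WT fasting vs. WT refed, the 5 sensors and transcription factors, the 3 members of lowest p between the fasted genotypes, and Nampt in ranges. Of every other list up to 3 genes with the lowest p are named, and the 5 genes most like Hspa5 outside the members. Other members are named to account for all 42, and Herpud1, Calr, Alg12, Acnat2 and the further ATF4 genes after their values were seen. Of 118 listed pathway genes outside the members 115 matched a symbol. RefSeq promoter sequences matched 35 members, and a planned search of protein ends was not run for want of a protein table.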

Additional observations from a re-analysis of the deposited data

Results flagged for a closer look

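None of the 42 genes had a NAMPT LKO liver beyond Dixon's 95% limit for 5 samples (critical value 0.71), where chance gives about 1 in 20. Groups of 2 and 3 livers were not tested.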

How the results depend on the processing

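The 41 negative values of WT fasting vs. WT refed stayed between 40 and 41 under every alternative, and 14 of the 30 calls held under all 19 of them, among them Hspa5, Hyou1, Sdf2l1, Creld2, Manf, Syvn1 and Pdia4, whereas Uggt1, Ppib, Derl2 and Ssr2 lost theirs in 7 to 10. Of the 12 genes not called, 7 gained a call in some alternative (Edem3 in 8, Sec61b in 7, P4hb in 6, Canx in 4, Edem2 in 2, Atf6 and Pdia5 in 1 each), and the members called numbered 33 with DESeq2 and with edgeR's exact test and 36 with voomWithQualityWeights. In NAMPT LKO fasting vs. WT refed 16 of 31 calls held. None of the 42 genes was called in NAMPT LKO fasting vs. WT fasting under any of 21 alternatives. With 1 library left out, the members called ranged from 15 to 35 and from 17 to 35 in the comparisons of WT fasting and of NAMPT LKO fasting with WT refed, and were 0 throughout between the fasted genotypes. The medians then ranged from -0.958 to -0.904, from -0.971 to -0.864 and from -0.0606 to 0.053, and between the fasted genotypes 12 (without WT fasting liver 3) to 26 of the 42 values were negative. Scaling by library size alone moved the medians to -0.970 and -0.998. Removing the GC trend gave -0.957 in WT fasting vs. WT refed, and voomWithQualityWeights gave -0.857 in NAMPT LKO fasting vs. WT refed. Values near 0 changed sign. Ern1 in WT fasting vs. WT refed ranged from -0.374 to 0.0325 (without refed liver 2) with 1 library left out. Os9 in NAMPT LKO fasting vs. WT refed was as low as -0.115 when scaled by library size alone. With 1 library left out its lowest value was -0.0698, without NAMPT LKO liver 3. Os9 was 0.00655 without refed liver 2, and 0.000364, 0.00166 and 0.0112 without NAMPT LKO livers 1, 2 and 4. With the GC trend removed it was 0.0259. The cause was not tested.

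Same-numbered WT and NAMPT LKO livers had correlations of deviations of 0.0924, 0.0964 and 0.0908, under the 0.1 taken to mark pairs, although each of these livers correlated best with its own number. In libraries 1 to 3 the replicate block gave 0 calls and a median of -0.00261, and the same libraries without it 0 calls and 0.00236. The 2 refed livers limit every comparison with the fed state.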

Other observations

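WT fasting liver 3 had the highest value of the 3 WT fasting livers in 29 of the 42 ER genes, including Hspa5 at 689 against 511 and 556 CPM and Herpud1 at 774 against 307 and 489 CPM. The share of all genes with this order was not computed, so the count cannot be read as particular to the ER genes. As a library, liver 3 differed from WT fasting livers 1 and 2. Its deviation correlated with GC content at rho 0.266 against 0.123 and 0.151, and its mitochondrial share was 7.42% against 11.0% and 11.6%. The same liver had the highest Nampt level of the 10 libraries, at 139 CPM. Whether these belong together was not tested.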
